A study of Mus musculus with 3 samples.

Results

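Mouse bone marrow mesenchymal stem cells (MSCs) before induction were compared with the same kind of cells after 3 days of osteogenic culture, on 1 array each, 2 of the 3 arrays of the series. MSCs are adherent stromal cells of the marrow that can form bone, cartilage and fat cells. Per the labels, both RNAs came from primary cells of male mice aged 8 weeks, grown in αMEM with fetal serum and antibiotics. The day 0 culture (MSC day0) had no inducers, and the day 3 culture (Osteoblast day3) had received ascorbic acid at 50 µg/mL together with β-glycerophosphate, an organic phosphate, at 10 mM. No glucocorticoid is named in the labels, and the number of animals behind each culture is not given in the sources used here. The third array, from day 21 of the same culture, is used only for values set beside those of day 3.

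The arrays carried named probes for 20279 genes, and 12455 of these count as measured, with signal well above background both at day 0 and at day 3. All measured genes were taken, whatever their difference. A difference is the log2 of the day 3 signal minus that of day 0, each after subtraction of its array's 75th percentile, and a signal is the scanner's processed intensity before that step. Those percentiles were 172.2 at day 0 and 174.6 at day 3. A gene is called higher or lower when it differs by at least 2-fold, a rule of size and not a test: with 1 array per group there is no replicate check and no p-value. The spread of probes spotted 10 times gave a technical SD of 0.17 for a difference, which covers the array and neither cultures nor animals. The day 3 array was on another slide and scan than the day 0 array, and a slide effect cannot be told apart from the effect of the days. In bulk RNA, fewer cells of a type and less RNA per cell cannot be told apart either.

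In marrow stroma, osteogenic medium works through collagen: ascorbic acid is a cofactor of the enzymes that mature it, and the matrix in turn supports osteoblast genes. Early osteoblasts still divide and lay down collagen, and mineral-binding proteins come later. Stromal cells are also known as sources of cytokines, complement and other secreted defence proteins.

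At day 3, 963 genes (7.73% of those measured) exceeded their day 0 level by 2-fold or more, and 978 (7.85%) lay below it by as much. At 4-fold the numbers were 335 higher (2.69%) and 164 lower (1.32%), and at 16-fold 56 and 12. On this scale the 4-fold counts leaned upward and the 2-fold counts were nearly even. A further 303 genes were higher and 183 lower by a bound of at least 2-fold, because they were above background on 1 array only. For such genes the brighter value was set against the lowest level that still counted as above background on the other array, and they are given as "at least" a fold. Of the measured genes, 65.9% lay within 1.5-fold, and the correlation over genes was 0.95, a description of 2 arrays. Scaling by the spike-in probes in place of the 75th percentile moved every difference by -0.58, and with it 498 genes were 2-fold higher and 3432 lower, and 200 and 426 at 4-fold, so the lean at 4-fold turned downward. Directions below are therefore relative to the bulk of the genes.

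**Figure D1:**
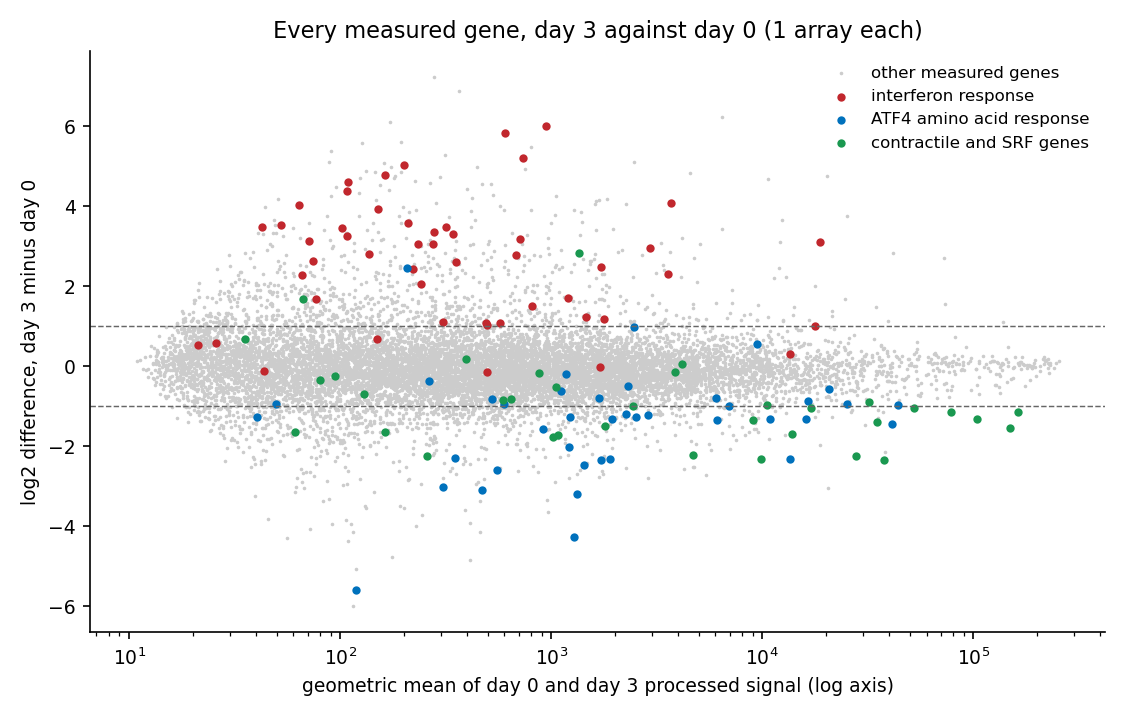
Log2 difference between day 3 and day 0 (vertical axis) against the geometric mean of the signals on the 2 arrays (horizontal log axis), 1 point per measured gene, with dashed lines at 2-fold. Interferon response genes lie mostly above the upper line, and ATF4 and contractile genes mostly lie below 0 (43 of 50, 23 of 40 and 20 of 35 are past the 2-fold line on that side).

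Sorted by function, 159 gene families covered 5699 of the measured genes. These families and the gene lists used below were chosen with earlier results of these data known. Immune and defence families stood out on the higher side, with 96 of 239 measured genes (40.2%) at least 2-fold higher and 8 lower. Matrix families had 52 of 222 higher (23.4%) and 28 lower (12.6%), and secreted ligands had 45 of 200 higher (22.5%) and 41 lower (20.5%). Receptors had 30 of 175 higher (17.1%) and 13 lower. On the lower side were the cytoskeleton, with 49 of 266 lower (18.4%) and 19 higher, and cell division, with 57 of 391 lower (14.6%) and 6 higher. Adhesion families had 22 of 143 lower (15.4%) and 15 higher (10.5%). Transcription factors, protein synthesis and turnover, and RNA processing stayed below the shares of all genes in both directions: of 329 RNA processing genes, 1 was higher and 18 were lower. Genes in no family were close to the whole, with 441 of 6756 higher (6.53%) and 473 lower. These class counts were not repeated under spike-in scaling, which turned the lean of some matrix and receptor families. Collagen chains went from 9 higher and 4 lower to 6 and 7, and cytokine receptors from 9 and 1 to 4 and 6.

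**Figure D2:**
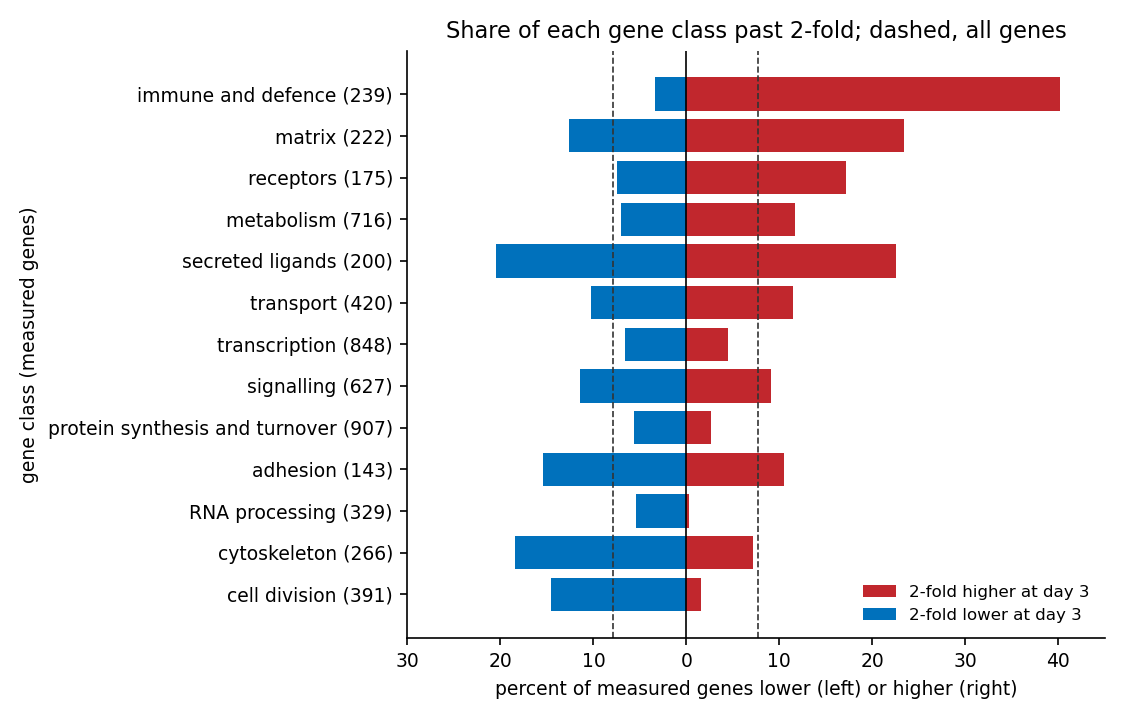
Percent of the measured genes of each functional class that were at least 2-fold higher (right) or lower (left) at day 3, with the number measured in parentheses and the shares of all measured genes as dashed lines. The immune class reaches 40.2% higher, while cell division has 14.6% lower against 1.53% higher.

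By effect size, the gene most raised was Sult1a1, a phenol sulfotransferase, with signals of 22.6 at day 0 and 3419.7 at day 3 (149-fold). Next were 2 lipocalins, carriers of small hydrophobic molecules: Lcn2 went from 33.5 to 4007 (118-fold) and Apod from 738 to 55738 (74.5-fold). The purine enzyme Gda read 20.5 at day 0 and 1435 at day 3, and the membrane protein Ms4a4d differed by 5.37. Clca3a2 and Clca3a1, neighbouring and closely related chloride channel regulators, differed by 5.60 and 5.29, and either probe may take up the other's RNA. Among the largest bounds were the haemoglobin scavenger Hp (at least 1584-fold, 10.2 to 16415), the protease inhibitor Slpi (at least 693-fold), Sfrp2, which binds Wnt (at least 231-fold) and the cartilage protein Ucma (at least 217-fold). Hif3a, a hypoxia-factor subunit, followed at 141-fold or more, the ferritin receptor Scara5 at 139-fold or more and the antiprotease Serpina3n at 127-fold or more.

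At the other end, the cornified envelope gene Lce1i fell from 909.9 to 14.4 (63.9-fold), and Lce1h, Lce1g and Lce1c were lower by at least 36.1-, 24.7- and 22.0-fold. These 4 genes are near-identical neighbours, so their single values are uncertain. The arginine and lysine transporter Slc7a3 fell from 819.6 to 17.2, the natriuretic peptide Nppb from 684 to 20.7 and the receptor phosphatase Ptprz1 from 2192 to 77.6. The muscle-type cytochrome oxidase subunit Cox6a2 read 915 at day 0 and 34.1 at day 3, the reductase Cyb5r2 246 at day 0 and 12.8 at day 3 and the Notch ligand-like protein Dner 907 at day 0 and 57.1 at day 3. Ptgs2, the inducible prostaglandin synthase, fell from 1925 to 109, and the neuropeptide Vip from 479 to 27.4. Prl3a1, of the placental prolactin family, differed by -4.07. The largest bounds were those of the olfactory receptor Olfr781 (at least 96.7-fold lower), the urotensin-related peptide Uts2b (15.2-fold), the potassium channel subunit Kcnmb1 of smooth muscle (14.7-fold), the transcription cofactor Dach2 (13.3-fold) and the carbonic anhydrase Car6 (12.2-fold).

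Interferon response genes were mostly higher at day 3. Type I interferons act through their receptor, the kinases JAK1 and TYK2, and a complex that holds STAT2 and IRF9 and binds the interferon response element in the promoters of antiviral genes. Of a list of 64 such genes, 50 were measured, and 43 were at least 2-fold higher and 0 lower, beside 7.73% and 7.85% of all genes. The median difference was 2.78 against -0.08 over all measured genes, and 33 passed 4-fold (2.69% of all genes did). By a bound, 6 more were higher.

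The promoters of 35 of those 43 genes could be matched by symbol to a RefSeq promoter table (GRCm38.p6, 250 bases before to 50 after each start). The letters GAAANNGAAA, the core of the interferon response element, stood on either strand in 14 of the 35 (40%), against 1079 of all 27025 genes in that table (3.99%). Members of 1 family share promoter sequence, so these 14 are not independent: Ifit3 and Ifit3b have the same window. Shown here are 50-base windows, or the part before the start site, around the match nearest the start. They are given for the 5 genes with the greatest difference among those with a match before the start, and for Stat2, a factor of the pathway itself. Ifitm1, Ifi27l2a, Rtp4 and Oasl2 differed more and are not shown, as no match before the start was found for them in the table. The windows are written 5′ to 3′ on the gene's strand, with the matching letters in capitals (the reverse complement where the match is on the opposite strand).
Oas1a: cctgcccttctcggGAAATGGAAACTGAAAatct
Isg15: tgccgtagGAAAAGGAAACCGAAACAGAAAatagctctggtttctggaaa
Igtp: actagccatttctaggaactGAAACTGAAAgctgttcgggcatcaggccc
Trim30a: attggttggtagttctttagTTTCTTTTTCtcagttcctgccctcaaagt
Ifit3: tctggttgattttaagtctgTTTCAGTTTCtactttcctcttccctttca
Stat2: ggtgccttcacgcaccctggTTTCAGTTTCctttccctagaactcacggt
In GRCm38.p6 the windows are chr5:120907526-120907559 (minus strand), chr4:156200855-156200904 (minus), chr11:58199502-58199551 (plus), chr7:104465200-104465249 (minus), chr19:34583387-34583436 (plus) and chr10:128270256-128270305 (plus). In Oas1a and Isg15 the capitals cover overlapping matches, with 2 and 3 in the 250 bases before the start. A match is a run of letters and says nothing of binding in these cells. Searches for the cell cycle homology region and for ATF4, TEAD and AP-1 elements in the lower sets described further on are void, because fewer than 80% of the genes of each set had a promoter in the table.

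Among the sensors and effectors, the RNA sensor Ifih1 differed by 2.80 and the 2'-5' oligoadenylate synthases, which make the activator of RNase L, were higher in 5 of 5 measured cases. Oasl2 went from 34.7 to 1149, Oas1a from 23.4 to 494 and Oasl1 from 23.8 to 210.0. Oas1f and Oas2 were above background at day 3 only, at least 16.6- and 13.3-fold. The Oas1 genes are close copies, so the value of any 1 of them is uncertain. The sensor Dhx58 was at least 30.4-fold higher. Ifih1 and, below, Isg15, Usp18 and the members within the technical SD are named for their role, a choice made with their values in view.

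The membrane and small effector proteins had the largest values: Ifitm1, which blocks virus entry, went from 116 to 7627 (6.01), and the receptor-transport protein Rtp4 from 120.2 to 4471 (5.20). The ubiquitin-like modifier Isg15 read 899.8 at day 0 and 15296 at day 3, and its protease Usp18 60.6 at day 0 and 730.1 at day 3. Across the IFIT, IFITM and IFI genes, 24 of 33 were higher and 1 lower, with 8 more higher by a bound, among them Ifit1 (at least 33.4-fold) and the DNA sensor family member Ifi207 (at least 52.1-fold). The 1 lower gene was Ifi27l2b (489.6 to 24.1), whose neighbour Ifi27l2a went from 79.6 to 4571: these near-identical genes moved in opposite directions on their own probes. Not every member shared the shift, since Ifit2 (-0.12), Ifi47 (-0.14) and Irgm1 (-0.016) differed by less than the technical SD.

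Among the immunity GTPases, which attack the vacuoles of intracellular pathogens, 6 of 11 were higher, led by Irgm2 (35.2 to 928), Igtp (38.3 to 594) and Gbp3 (95.2 to 804). The poly-ADP-ribose polymerases split along the same lines: Parp14 (4.03), Parp9 (2.61), Parp10 (2.29) and Parp12 (1.44) were higher, and the other 11 of 15 were within 2-fold (3 higher and 3 lower under spike-in scaling). Of the interferon regulatory factor and STAT family, 4 of 14 measured genes were higher and 1 lower (2 and 2 under spike-in scaling), with Stat2 at 260.0 at day 0 and 1795 at day 3 and Irf9 at 235 at day 0 and 2164 at day 3. Irf7, the amplifier of the response, was at least 21.8-fold higher, whereas Irf5 fell from 296 to 39.1.

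Antigen presentation by MHC class I moved in the same direction. Of 27 measured genes 13 were higher and 1 lower. The immunoproteasome subunits Psmb9 (30.8 to 339) and Psmb8 (86.8 to 893) led them, followed by the class I molecule H2-T23 (893 to 3677) and the peptide transporter subunit Tap1 (42.5 to 139). B2m, the shared light chain, differed by 0.30. MHC class I genes are closely related, and their probes may cross-hybridise. MHC class II had 4 measured genes, of which none passed 2-fold.

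The interferons themselves showed no such difference. Of 13 interferon genes with a probe 2 were measured, Ifna1 (-0.019) and Ifnl3 (-0.045), Ifnb1 and Ifng were not well above background on either array, and no bound reached 2-fold (the largest was Ifnab, at least 1.71-fold). Markers of cells that make interferon or could carry immune transcripts stood as follows. Of 9 plasmacytoid dendritic cell genes 4 were measured, and the 1 that was higher was Bst2 (1041 to 8223), itself on the interferon list. Siglech differed by -0.47 (18607 to 13644), and Irf8, Flt3 and Spib were not above background. Of 26 macrophage genes 7 were measured and 1, Cd14, was higher (1.46), while Msr1 was lower by at least 2.15-fold. Csf1r (575 to 799), Lyz1 (94.0 to 171) and Lyz2 (20.6 to 36.5) were measured and within 2-fold. Of the 7 measured macrophage genes 4 lay above 0 and 3 below. The pan-leukocyte Ptprc and the macrophage markers Adgre1, Cd163, Mrc1 and Spi1 were at background on both arrays. Of 19 lymphocyte genes 3 were measured, with differences up to 0.58 (Cd3e).

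Secreted defence proteins formed the next group. The complement cascade, in which C1 or factor B leads to cleavage of C3, had 13 of 19 measured members higher and 0 lower, with a median of 1.82. C4b, a component of the classical pathway, went from 18.2 to 885, and the C1 inhibitor Serping1 from 119 to 5384. C3 went from 107 to 1603, with its 2 probes at 3.88 and 6.42. Clu, which limits the terminal complex, read 428 at day 0 and 7852 at day 3, and factor B (Cfb) was at least 45.3-fold higher. Both activators and inhibitors of the cascade were thus among the higher genes.

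Lipocalins and acute-phase proteins had 10 of 17 measured members higher and 0 lower, and as many as 10 more were higher by a bound, including Saa3 (at least 42.8-fold) and the WAP-domain protein Wfdc12 (at least 39.7-fold). Serpins, which trap proteases, had 7 of 22 higher and 1 lower (4 and 6 under spike-in scaling). Serpina3n, Serpina3m and Serpina3c were above background at day 3 only, at least 127-, 26.4- and 22.7-fold, and are near-identical copies.

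Chemokines had 6 of 15 measured members higher and 1 lower (4 and 3 under spike-in scaling). The neutrophil attractants Cxcl5 (at least 43.3-fold) and Cxcl1 (20.1 to 127) were higher, as was the monocyte attractant Ccl8 (20.3 to 455), and Ccl17, a T cell attractant, fell from 328 to 47.3. Interleukins went both ways, 3 higher and 4 lower of 10. Il34, a ligand of the macrophage growth factor receptor, went from 286 to 3489, and Il33 was at least 5.8-fold higher. The gp130 ligands Il11 (278 to 57.9) and Clcf1 (169 to 47.2) fell. Il6 itself fell from 385 to 136.

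Cytokine receptors had 9 of 31 higher and 1 lower (4 and 6 under spike-in scaling). The interleukin-1 system was represented by its receptor Il1r1 (191 to 1118), the decoy receptor Il1r2 (at least 16.1-fold) and the receptor antagonist Il1rn (at least 6.19-fold). Il6ra (144 to 635) and Lifr (88.6 to 386) were higher while the gp130 ligands named above were lower. On the wide inflammation list, 11 of 25 genes were higher, 5 lower and 15 more higher by a bound, but Tnf, Il1a and Il1b were not above background on either array.

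Genes that glucocorticoids are known to induce were higher in 21 of 31 measured cases and lower in 3, with a median of 1.86. Of all genes 7.73% were higher and 7.85% lower. The list was drawn up with earlier results of these data known. It holds Sult1a1, Lcn2 and Apod, the most raised of all measured genes, so its count and median may partly reflect that choice. The labels name no glucocorticoid in the medium, and the list shares Lcn2, Saa3 and other members with the acute-phase family. Apart from Sult1a1, Lcn2, Apod and Hif3a, given above, the transcription factor Zbtb16 was at least 119-fold higher. Among members chosen after their values were seen, the metallothionein Mt2 went from 3887 to 105740, the glutamine synthetase Glul from 279.9 to 3901, the FK506-binding protein Fkbp5 from 433 to 4276 and the leucine zipper protein Tsc22d3 from 1347 to 9935. Hsd11b1, the enzyme that regenerates active glucocorticoid, read 35.0 at day 0 and 192 at day 3, and the receptor Nr3c1 differed by -0.71. The 3 lower members were Itga5, Gadd45g and Timp3 (-1.95, -1.26 and -1.11). In the same cells Per1, a clock gene that glucocorticoids also induce, went from 957 to 3086, whereas the clock repressors Nr1d2 (-1.97) and Nr1d1 (-1.85) were lower.

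**Figure D3:**
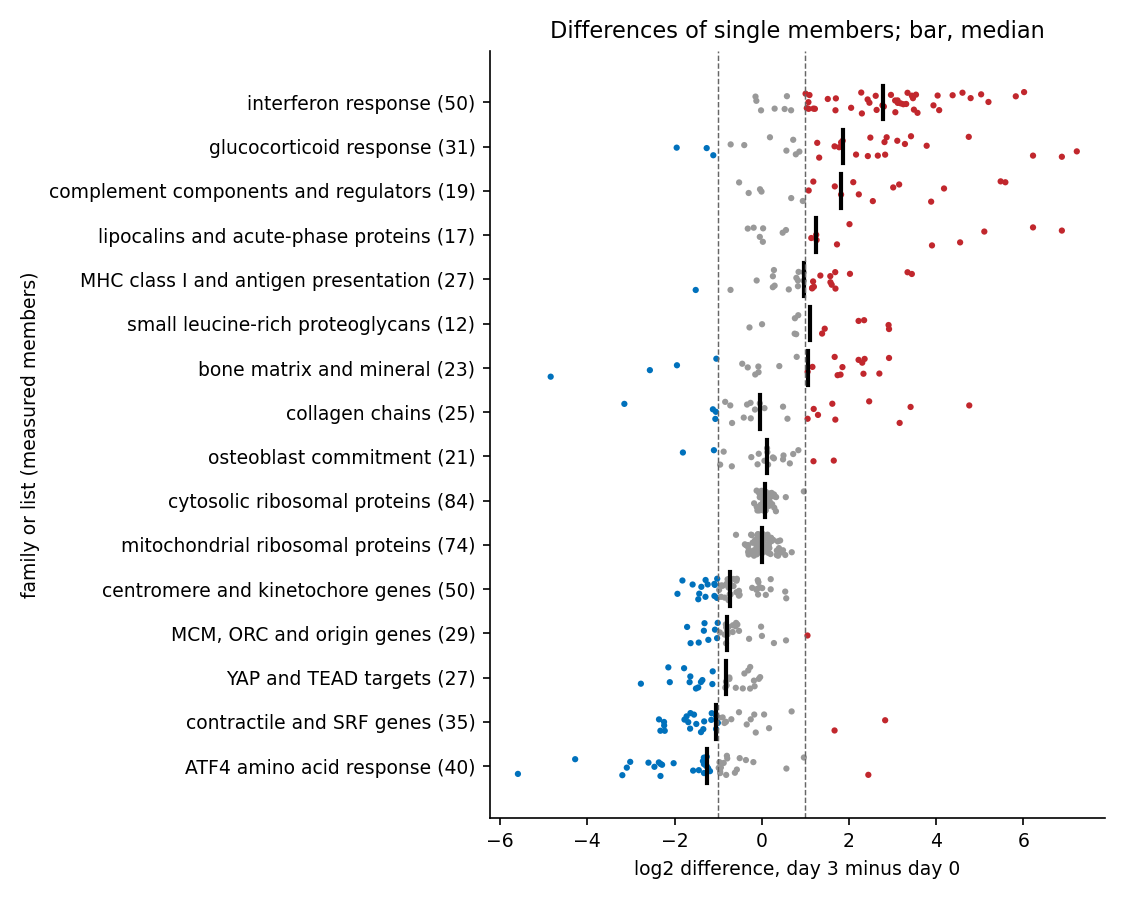
Log2 difference between day 3 and day 0 of each measured member of 16 families and lists (1 point each, red at least 2-fold higher, blue at least 2-fold lower, vertical scatter for legibility only), with the median as a bar and the number measured in parentheses. Medians run from 2.78 for the interferon response to -1.26 for the ATF4 list, and both ribosomal protein families lie between the 2-fold lines.

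Matrix genes went in both directions. Of 25 measured collagen chains 9 were higher and 4 lower (6 and 7 under spike-in scaling), and 5 others exceeded 2-fold by a bound. The median of -0.044 changed sign under several settings, so no direction is given for the family. Col1a1, the main bone collagen, differed by 0.062 at signals of 61666 at day 0 and 65266 at day 3. Fibril-associated chains were among the higher ones: Col14a1 went from 34.8 to 955 (its 2 probes at 1.64 and 4.76), Col9a2 from 51.6 to 468, and Col9a1 was at least 36.5-fold higher. The beaded-filament chain Col6a2 went from 496 to 5357, and Col10a1, the collagen of hypertrophic cartilage, fell from 181 to 20.7.

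The small leucine-rich proteoglycans, which coat collagen fibrils, were higher in 6 of 12 cases and lower in 0. Omd, of bone matrix, read 47.3 at day 0 and 362 at day 3, lumican (Lum) 405 at day 0 and 3080.4 at day 3 and Ogn 1905 at day 0 and 8996 at day 3. Among elastic fibre proteins 7 of 21 were higher, with the microfibril proteins Mfap2 (1400.1 to 8228) and Fbn2 (476 to 2681), and 2 lower, Ltbp2 (27300.4 to 11467) and Fbln5 (13434 to 5915), with counts of 4 and 5 under spike-in scaling. Matricellular proteins, which tune adhesion without forming fibres, split into 10 higher and 6 lower of 24 (8 and 8 under spike-in scaling). Ccn3 went from 30.9 to 983, Matn4 from 32.0 to 744 and Matn2 from 360.5 to 5288, while tenascin C (Tnc) fell from 817 to 140.4 and Ccn2 from 79715 to 18309. Ccn3 and Ccn2, relatives of 1 family, thus differed in opposite directions.

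Among receptors for matrix, 5 of 20 measured integrin genes were lower and 2 higher. The fibronectin receptor chain Itga5 fell from 1205 to 316, Itgav from 449 to 143 and Itgb3 from 1189 to 459.8. The laminin-binding Itgb4 (53.7 to 249) and the integrin-like Itgbl1 (1022 to 7156) were higher.

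The osteoblast commitment list, which holds the lineage's transcription factors and early matrix genes, had 2 of 21 measured members higher and 2 lower, shares close to those of all genes (1 and 5 under spike-in scaling). Runx2, the master regulator, differed by 0.12 at dim signals of 18.7 at day 0 and 20.7 at day 3, and Sp7, its downstream partner, was not above background on either array. The homeobox genes Msx2 (2008 to 581) and Dlx5 (122 to 57.8) fell, and the sphingomyelinase Smpd3 (152 to 486), which is needed for mineral, was higher. Alkaline phosphatase (Alpl) was above background at day 3 only, at 25.6, at least 2.48-fold.

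The list of bone matrix and mineral genes had 12 of 23 measured members higher and 4 lower. Its median of 1.05 fell to -0.073 when only genes with signals of at least 50 on both arrays were taken. That filter leaves out raised genes that were dim at day 0, such as Omd. Mgp, an inhibitor of mineral, read 28307 at day 0 and 186011 at day 3, Ibsp, or bone sialoprotein, was above background at day 3 only (7.56-fold or more), and the osteocalcin copies Bglap2 (64.8 to 337) and Bglap3 (2.33) cannot be told apart by probe. The phosphate transporter Slc20a1 fell from 10308 to 1765. Of the osteocyte genes, Dmp1, Phex and Sost were not above background on either array.

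Cartilage and fat genes were also among the higher genes in this osteogenic medium. Of 14 measured chondrocyte genes 7 were higher and 2 lower, with 7 more higher by a bound, including Ucma, Cytl1 (at least 38.3-fold) and the chondromodulin gene Cnmd (at least 33.2-fold). Col2a1, the main cartilage collagen, differed by -0.41, and the cartilage oligomeric protein Comp went from 434 to 2530.1. Of 35 measured adipocyte genes 10 were higher, 1 was lower and 7 more were higher by a bound (measured counts of 9 and 5 under spike-in scaling). The fatty acid carrier Fabp4 went from 241 to 4644, Sncg from 204 to 2097, Mrap from 12.8 to 130.2 and Apoe from 316 to 2946. The master regulator Pparg differed by -0.21 and the lipogenic enzyme Fasn by -0.43.

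Stromal progenitor markers had 10 of 35 higher and 7 lower (8 and 11 under spike-in scaling). The list median was 0.25, and its lowest value, -2.91, was that of Nes (2839 to 383). The members with the largest differences, named next, were all higher and do not stand for the list. Of its 35 measured members 21 lay above 0 and 14 below. Pdgfra, a receptor of stromal progenitors, went from 57.2 to 1546, the niche factor Angpt1 from 33.2 to 450.3, the sialomucin Cd34 from 399 to 4921 and the protease Anpep from 210.0 to 1741. The Ly6 proteins Ly6c1 (6790.0 to 93538) and Ly6a, the Sca-1 antigen (3484 to 44365), were higher as well, and are close relatives. Pi16, of adventitial fibroblasts, read 40.7 at day 0 and 439 at day 3.

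Among insulin-like growth factors and their carriers, 4 of 10 were higher and 1 lower (2 and 4 under spike-in scaling). The binding proteins Igfbp3 (36.6 to 788) and Igfbp4 (466 to 2543) and the ligand Igf2 (at least 10.5-fold) were higher, and the receptor Igf1r fell by just past 2-fold (-1.01). Secreted Wnt antagonists had 3 of 7 higher and 0 lower, plus Sfrp2 and Frzb by a bound. Sfrp1 went from 107 to 2534, and Dkk1 was lower by at least 4.23-fold. Of 26 Wnt ligands and receptors 8 were higher and 4 lower (6 and 8 under spike-in scaling), the receptors Fzd9 (47.3 to 423) and Fzd4 (113 to 629.6) among the former.

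BMP and TGF-beta antagonists had 1 of 12 higher and 4 lower, but 8 lay above 0. Their median was 0.42 (-0.17 under spike-in scaling). Chrdl1 and Sostdc1 were higher by a bound (at least 6.67- and 6.33-fold). The BMP antagonist Grem1 (9443 to 2474) and the BMP-binding membrane protein Crim1 (1462 to 344) fell, and the activin trap Fst was higher (3699 to 14075). Its target ligand Inhba, the activin A chain, fell from 13802 to 2135. In the vascular factors Vegfa fell from 1726 to 282 and Vegfd went from 1756 to 14697. The EGF receptor ligands Hbegf (3409 to 276), Nrg1 (2172 to 625) and Ereg (643 to 248) were lower in 3 of the 5 measured genes of that family, and the receptor Egfr was just within 2-fold (573 to 1159).

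Feedback genes of the ERK kinase pathway, which EGF ligands feed, were lower in 13 of 34 cases and higher in 5. The phosphatase Dusp4 fell from 561 to 78.6, the urokinase receptor Plaur from 4445 to 689, and Errfi1, an inhibitor of EGFR, went the other way (606 to 4319.8). Across the dual-specificity phosphatases 5 of 19 were lower and 0 higher. Among AP-1 and immediate early factors 9 of 36 were lower and 6 higher, with Maff at 1944 at day 0 and 346 at day 3.

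On the lower side was the response to amino acid shortage. The translation factor kinases of the integrated stress response raise ATF4, which drives amino acid import, synthesis and tRNA charging. Of 40 measured genes of that response 23 were lower, 1 was higher and 3 more were lower by a bound, with a median of -1.26. The pseudokinase Trib3, which restrains the response, fell from 5616 to 293, and the glutathione-degrading enzyme Chac1 from 3969 to 439. Among importers, Slc7a5 fell from 1363 to 162 (its 2 probes at -3.09 and -1.02) and Slc7a1 from 3856 to 761. The synthesis enzymes Asns (29953 to 6085), Psph (4238 to 859), Cth (869 to 109) and mitochondrial Mthfd2 (1355 to 227) fell. Atf4 itself differed by -0.95, just within 2-fold, and Atf3 was lower by at least 8.21-fold. The 1 higher member was Cbs (88.7 to 489), an enzyme just upstream of Cth.

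Families that overlap this list showed where it stopped. The wider serine, one-carbon and amino acid synthesis family had 10 of 38 lower and 4 higher, and tRNA synthetases 8 of 39 lower and 0 higher. Amino acid transporters had 8 lower and 7 higher of 30 (13 and 4 under spike-in scaling). Against Slc7a3, Slc7a5 and Slc7a1, the glutamate carrier Slc1a3 went from 13.5 to 174 and Slc7a2 from 11.1 to 60.8, both dim at day 0.

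Contractile genes were lower in 20 of 35 measured cases and higher in 2, with a median of -1.05. These are genes of actin filaments and smooth muscle that serum response factor drives with its cofactors of the MRTF family. The smooth muscle actin Actg2 fell from 85125 to 16857, calponin (Cnn1) from 60296 to 12934 and the skeletal actin Acta1 from 10088 to 2188. The myosin heavy chain Myh11 read 559 at day 0 and 120.1 at day 3, and Tpm1 had 5 probes between -2.58 and 0.51. Chosen after their values were seen, Acta2 (241432 to 110512), Tagln (253124 to 87411) and Srf (1868 to 554) were also lower. The 2 higher members were Pgm5 (504 to 3633), of adhesion sites, and the cofactor Myocd (1.67).

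Targets of YAP and TEAD, which respond to cell spreading and tension, were lower in 12 of 27 cases and higher in 0 (median -0.82). Ankrd1 fell from 4360.1 to 647, Ccn2 from 79715 to 18309, Ajuba from 853 to 252 and tissue factor (F3) from 15173 to 4887. Ccn1, a standard target, differed by -0.74. Of the actins and their partners 13 of 36 were lower and 3 higher, and of the LIM proteins 11 of 35 lower and 6 higher. The formins and Arp2/3 subunits, which nucleate actin, had none of 26 past 2-fold (9 lower under spike-in scaling).

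**Figure D4:**
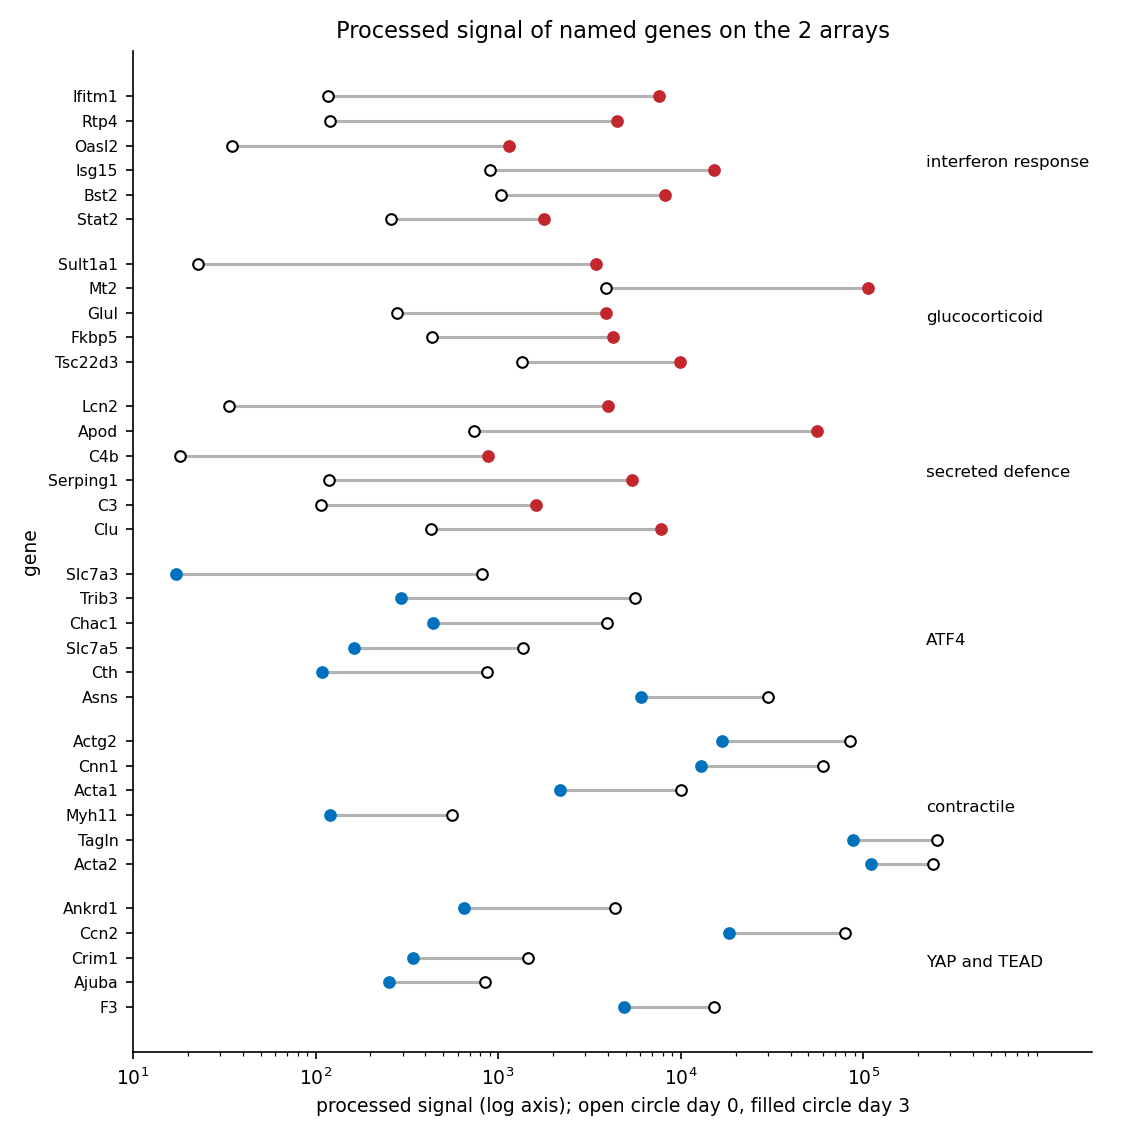
Processed signal (horizontal log axis) at day 0 (open circles) and day 3 (filled circles, red where higher and blue where lower) for genes named in the text, grouped by list; levels of different genes are not comparable. Sult1a1 moves from 22.6 to 3419.7, and Slc7a3 from 819.6 to 17.2.

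Cell division genes were lower by smaller amounts. Of 50 measured centromere and kinetochore genes 14 were lower and 0 higher, and 0 passed 4-fold, with a median of -0.74. The kinetochore motor Cenpe fell from 2245 to 596, the checkpoint proteins Kntc1 from 226 to 65.0 and Bub1 from 225 to 83.3, and the spindle kinase Aurka from 1926 to 748. Genes of replication origins had 9 of 29 lower and 1 higher, among them Ticrr (124 to 38.4), needed for origin firing, and Dbf4 (148 to 48.5), the activator of an origin kinase. Kinesins, microtubule motors counted above with the cytoskeleton and not with division, had 8 of 29 lower and 0 higher. The largest of these was Kif21b (468 to 77.0) and Kif24 (-1.61), the mitotic Kif23 (197 to 73.2) and Kif20b (351 to 143) followed.

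Metabolic and detoxifying families had a few large movers. Among sulfotransferases, glucuronosyltransferases and related genes 4 of 11 were higher, with Sult5a1 at least 86.0-fold besides Sult1a1, and Sult4a1 fell (519 to 149). Glutathione and NRF2 genes had 16 of 62 higher and 6 lower (8 and 14 under spike-in scaling). The extracellular peroxidase Gpx3 (1132 to 9621), the transferase Gstt1 (343 to 2693) and the extracellular dismutase Sod3 (1474 to 7969) were higher, while Nqo1, a standard NRF2 target, fell from 3338 to 524. Retinoid handling had 7 of 23 higher and 1 lower (3 and 6 under spike-in scaling), led by the retinal dehydrogenases Aldh1a7 (548 to 9261) and Aldh1a1 (2356 to 10318), close relatives, and by the chemerin gene Rarres2 (51.1 to 703). The water channel Aqp1 went from 391 to 6621, with 3 of 5 aquaporins higher.

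Hypoxia response genes had 11 of 38 lower and 4 higher. Besides Vegfa, the adenylate kinase Ak4 (268 to 44.1) and the collagen lysyl hydroxylase Plod2 (1383 to 238) fell, and Selenbp1 went from 54.1 to 1319. Neuropeptides and peptide hormones were divided, 7 lower and 3 higher of 15, with the opioid precursor Penk (35.0 to 631) and neuromedin B (Nmb, 147 to 1242) opposite to Nppb and Vip. Hox genes, which record body position, had 4 of 15 lower and 1 higher, Hoxb5 (76.9 to 21.7) and Hoxa2 (49.4 to 131) being examples.

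Other lineages were checked by marker lists. Of 10 measured keratinocyte and epithelial markers 6 were lower and 0 higher. Besides Lce1i these were Lor (402 to 28.3), the 14-3-3 protein Sfn (426 to 49.0), Krt18 (87.6 to 25.3), Krt19 (1088 to 357) and Dsp (64.6 to 29.8). Krt14, Krt1, Epcam and Cdh1, which define that lineage, were not above background on either array. The median of that list (-1.38) became 0.051 over genes with signals of at least 50 on both arrays. That filter leaves out Lce1i, Lor, Sfn, Krt18 and Dsp, whose day 3 signals were below 50. Endothelial markers had 1 of 5 higher, Plvap (19.1 to 69.7, probes at 0.39 and 1.85), with Cdh5 and Vwf not above background. Esam was lower by at least 3.06-fold, and Kdr was within 2-fold (3588 to 4902). Of 7 osteoclast genes Acp5 was higher (239.7 to 1512) and Itgb3 lower, and Ctsk differed by 0.83. Granulocyte genes had 3 measured of 15, with Camp higher (28.9 to 166) and Mpo not above background. S100a9 was lower by at least 4.36-fold, and Csf3r (13172 to 7914) and Elane (721 to 955) were within 2-fold. Of 3 measured erythroid and megakaryocyte genes Tfrc, which many dividing cells use for iron, fell (192 to 52.9). Of 4 skeletal muscle genes only Acta1 passed 2-fold, and of 9 glial and neural crest genes 3 were higher and 3 lower, among the latter Ptprz1 and Nes (2839 to 383). The part of such cells in any result was not tested.

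Several large families had few genes past 2-fold relative to the bulk of the genes. None of 84 cytosolic and none of 74 mitochondrial ribosomal protein genes passed 2-fold, with medians of 0.082 and 0.0027, both negative under spike-in scaling (-0.50 and -0.58). The same held for 16 chaperonin and prefoldin genes, although their median was -0.54 and 11 of them were lower under spike-in scaling, and for 7 connexins. Respiratory complex subunits had 3 of 93 higher and 1 lower, Mediator, RNA polymerase and general transcription factor genes 1 and 1 of 98, and hnRNP, SR and related RNA-binding proteins 0 and 4 of 82. Under spike-in scaling the counts of these 3 families were 2 higher and 5 lower, 0 and 29, and 0 and 38. The 2 higher genes among 47 proteasome subunits were the interferon-inducible Psmb9 and Psmb8 (2 higher and 18 lower under spike-in scaling). In all, 13 families with at least 20 measured genes had under 5% past 2-fold in either direction together.

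Some genes called in 1 direction lie next to each other. In the order of GRCm38.p6, 27 runs of at least 3 consecutive measured genes were all higher and 14 runs all lower, and 8 and 4 of them held 4 or more. The longest held 7 glutathione transferase genes (Gstm1 to Gstm7 on chromosome 3), each between 1.03 and 1.94. Others were the complement proteases C1ra, C1s1, C1rb and C1s2, the class I genes Psmb9, Tap1, Psmb8 and Tap2, the antigens Ly6e, Ly6a, Ly6c1 and Ly6f, the proteoglycans Aspn, Omd and Ogn, the trio Parp14, Dtx3l and Parp9, and Ifitm2, Ifitm1 and Ifitm3. Many of these neighbours are near-identical copies whose probes may share RNA, so a run is not a count of independent genes.

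The level of a gene bore on how often it passed the fold. With the measured genes split into 4 equal groups by signal, 11.3% of the dimmest group were higher and 10.3% lower, and 3.50% and 5.46% of the brightest. Of 155 measured long non-coding RNAs 10 were higher and 11 lower, shares close to those of all genes. For 3044 genes with 2 or more measured probes, the median SD between their differences was 0.14, and none had probes past 2-fold in opposite directions.

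The day 3 array was on another slide and scan than both the day 0 and the day 21 arrays. A peak at day 3 therefore cannot be told apart from a slide effect. Set beside day 21, which shares the day 0 array, the lists stood as follows. The interferon list had 43 of 50 higher at day 3 and 34 of 50 at day 21, with medians of 2.78 and 1.5. Isg15 read 899.8, 15296 and 1821 at days 0, 3 and 21, and Rtp4 120.2, 4471 and 2599. The glucocorticoid medians were 1.86 and 2.50, and Apod read 738, 55738 and 199609. For the adipocyte list 10 of 35 were higher at day 3 and 26 of 35 at day 21, and Pparg read 927, 811 and 3881. Centromere and kinetochore genes had 14 of 50 lower at day 3 and 33 of 45 at day 21. None of the cytosolic ribosomal protein genes was 2-fold lower at day 3, and 35 were at day 21. The ATF4 list had 23 of 40 lower at day 3 and 30 of 41 at day 21, with medians of -1.26 and -1.84. Its member Trib3 read 5616, 293 and 426, and so rose after day 3 while the list median fell further. Contractile genes had 20 of 35 lower at day 3 and 22 of 35 at day 21, and Acta2 read 241432, 110512 and 56627.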

How the data were processed

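Total RNA was labelled with Cy3 and hybridised to 1-colour Agilent mouse arrays, 1 array per group. Per the file headers, the deposited intensity is the processed signal of Agilent Feature Extraction 10.10.1.1, background-subtracted and not scaled between arrays, while version 12.0 is named in the submitters' processing notes. The deposited value table held the same linear intensity. Its column medians were 7.35 at day 0 and 7.46 at day 3, it was not centred, and no scale or direction stayed unknown.

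From it, log2 values minus each array's 75th percentile over 59305 non-control spots were computed (Python 3.11.15, pandas 2.3.3). Flagged spots (200 at day 0, 115 at day 3) were left out, and no spot was saturated. Probes were named through RefSeq transcript accessions (GRCm38.p6 table, 26755 of 55664 probes), and the probe with the highest mean stood for a gene. A gene was measured when at least 50% of its probe's spots were well above background on both arrays. Bounds used the lowest level above background on the dim array (signals of 10.2 and 10.5). Precision is limited by the number of arrays: the error model's median SD of a difference was 0.20, and with 1 array per group no test was made.

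Families (159) and lists (27) and the comparison were chosen with earlier results of these data known. Named are the 12 most raised and lowered genes, the 8 largest bounds each way, and from each described family up to 6 members with the largest difference and those near 0 or not above background. Others were named for their role after their values were seen. Some genes that this rule names are not reported here. The calling rule was run on simulated differences with planted folds and noise of the technical SD. That noise holds no variation of cultures, animals or slides, so the run does not bear on those. Normexp with limma 3.58.1 was run on median signals with an offset of 50, because the files hold no mean signal. The other alternatives were 4 scalings or value tables, the filter on dim probes, the mean over probes and the keeping of flagged spots.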

Additional observations from a re-analysis of the deposited data

How the results depend on the processing

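Quantile normalization, the mean over a gene's probes, keeping flagged spots and the deposited value table left the counts of called genes within 1.5 times of the main ones. No setting of the 9 tried turned a gene called in one direction into a call in the other. Several could not have done so. Spike-in scaling shifted every gene by -0.58 and the percentile over spots above background by 0.051. Both shifts are smaller than a reversed call would need. The deposited value table and the filters on dim probes leave each difference as it was. Of the genes past 2-fold, 49.6% were higher in the main setting and 55.0% with the percentile taken over spots above background on both arrays. Spike-in scaling gave 498 higher and 3432 lower at 2-fold (12.7% higher) and 200 and 426 at 4-fold. It changed the sign of 68 of 186 family and list medians, 1 of them of a size of 0.5 or more. Normexp gave 582 and 550 at 2-fold and 197 and 86 at 4-fold. Without a filter on dim probes the counts were 1904 and 1685 (53.1% higher), and 707 and 367, over 20279 genes. With signals of at least 50 on both arrays 617 were higher at 2-fold (46.9% of those called), and 210 and 101 passed 4-fold, over 10218 genes. Under that filter the median of the bone matrix and mineral list was -0.073 and that of the keratinocyte and epithelial list 0.051, both of the opposite sign. That filter changed no gene's difference, so these signs changed only because genes left the lists. It leaves out genes under 50 on either array, such as Lce1i (14.4 at day 3), Lor (28.3 at day 3) and Omd (47.3 at day 0). A gene near background has a bound at best. No paired analysis was possible because each group has 1 array and no result comes from a test.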
